A study of Mus musculus with 8 samples.

Results

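Gdf9, Bmp15, Fgf8 and Bmp6 encode growth factors that the mammalian oocyte secretes towards the follicle cells around it. They were taken as every probe set that the array's platform annotation gives to these 4 gene symbols. This yielded 6 of the 45037 probe sets that are not controls: 1 for Gdf9, 3 for Bmp15, 1 for Fgf8 and 1 for Bmp6. Dim probe sets were filtered out by asking that the signal exceed the median of its array in 4 or more of the 8 arrays. All 6 passed, as did 23336 probe sets in all. Fgf8 did so only through the 4 arrays of one-cell embryos, and lay below the median on the 4 arrays of oocytes.

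The arrays measured mRNA bound to polysomes, the strings of ribosomes that translate an mRNA. The MII oocytes, mouse eggs held at metaphase II, came in 4 batches. The one-cell embryos, also in 4 batches, had been treated with α-amanitin, which blocks RNA polymerase II. Each batch pooled 160 to 500 oocytes or embryos, per the labels. No strain, genotype or age is given in the labels used here, and the MII oocytes are labelled with no treatment. Embryo stage and α-amanitin therefore cannot be told apart. Signals are linear intensities in arbitrary units that the authors had scaled to a common mean per array. Total mRNA was not analysed here, so the amount of an mRNA and its loading onto ribosomes cannot be told apart either, and neither can fewer cells and less RNA per cell.

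GDF9 and BMP15 are closely related members of the transforming growth factor β (TGF-β) family. Both are made as precursors, cut by proprotein convertases, and act on granulosa and cumulus cells through the type II receptor Bmpr2 with type I receptors, chiefly Tgfbr1 for GDF9 and Bmpr1b for BMP15. GDF9 drives follicle growth and the expansion of the cumulus. FGF8 is a fibroblast growth factor (FGF) that acts together with BMP15 to promote glycolysis in mouse cumulus cells. BMP6 is a further bone morphogenetic protein of the oocyte and acts on granulosa cells.

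The 4 mRNAs did not move together from the egg to the embryo. Polysomal Gdf9 fell by 2.17 ± 0.43 (SE) on the log2 scale, Fgf8 rose by 4.72 ± 0.37 from a signal at the dim end of the arrays, and the 3 probe sets of Bmp15 rose by 0.87 to 2.18. Bmp6 changed by 0.18 ± 0.35 and did not pass the test. Each change is the one-cell mean less the MII mean of log2(signal + 10), n = 4 arrays per group, fitted with limma over all probe sets kept, with Benjamini-Hochberg adjustment over them and a threshold of 0.05. Of the 6 probe sets, 5 passed this test, against 32.1% of all probe sets kept. The same 5 had groups that did not overlap, against 32.6% of all probe sets kept. Fgf8 is among them although it met the filter only through the embryo arrays, so its call and separation are not independent of that filter. The 4 rises stand against 19.3% of probe sets called higher and the single fall against 12.8% called lower. Of the 4 rises, 3 are probe sets of Bmp15 read on the same arrays, so they are not separate members. Counted by gene, each by its brightest kept probe set, Bmp15 and Fgf8 rose and Gdf9 fell. Over all genes, 20.1% were called higher, 14.7% lower and 34.8% either way.

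The arrays differed between the groups in the ribosomal RNA signal and in the 75th percentile of signal, and one-cell array 1 stood apart in other measures. The 75th percentile lay between 81.5 and 96.8 on the MII arrays and between 108.8 and 171.7 on the one-cell arrays. The control probe set for the 3′ end of 18S ribosomal RNA read 1583 to 2971 on the MII arrays. On the one-cell arrays it read 10688 to 66754. These measures thus separate the groups, as do the signals of Gdf9, Bmp15 and Fgf8 below. The 18 hybridization controls, spiked into every sample alike, reached a geometric mean of 14879 on one-cell array 1. They lay between 857 and 3718 on one-cell arrays 2 to 4 and between 905 and 1364 on the MII arrays. One-cell arrays 2 (2528) and 4 (3718) thus also exceeded every MII array. The median signal of one-cell array 1 was 71.8, against 26.9 to 37.9 on the other 7 arrays. Oocyte identity was checked with 12 marker genes, of which 10 had a probe set. Of these 10, 9 lay above the array median on all 8 arrays, and Figla, an oocyte transcription factor, was the exception. Of the 10, all kept, 3 rose (Zp2, Nlrp5 and Nobox) and 2 fell (H1f8 and Zar1). Their summed signal was 49488 to 64896 on the MII arrays and 37411 to 62858 on the one-cell arrays. For 14 cumulus and granulosa cell markers the sum was 641 to 776 on the MII arrays, 485 to 912 on one-cell arrays 2 to 4, and 1782 on one-cell array 1. Only 3 of the 14 (Foxl2, Inha and Kitl) exceeded the array median on all 8 arrays, none was listed at 0, and Amh, a granulosa cell hormone, lay at or below the median on all 8. Of 9 kept, 1 changed, Cyp11a1, a steroid-making enzyme, which rose by 1.26 ± 0.43 (limma adjusted p = 0.032) from 25.5 to 45.1 on the MII arrays to 45.5 to 209 on the one-cell arrays. For 10 sperm and spermatid markers the sum was 307 to 369 on the MII arrays, 294 to 467 on one-cell arrays 2 to 4, and 988 on one-cell array 1, and 2 of the 10, Acr and Gapdhs, exceeded the median on all 8. Of 6 kept, Prm2, a protamine of sperm chromatin, rose by 1.96 ± 0.39 (limma adjusted p = 0.00103), from 15.7 to 46.1 on the MII arrays to 80.3 to 245.9 on the one-cell arrays. Akap4, a protein of the sperm tail, changed by -1.77 ± 0.41 (limma adjusted p = 0.00333). Its signal was 61.8 to 106.9 on the MII arrays and 6.1 to 25.9 on the one-cell arrays, below the median of each one-cell array. Akap4 thus met the filter only through the MII arrays, and its call is not independent of that filter. The part of these markers, of the ribosomal RNA signal, of the 75th percentile and of one-cell array 1 in the results below was not tested.

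**Figure D1:**
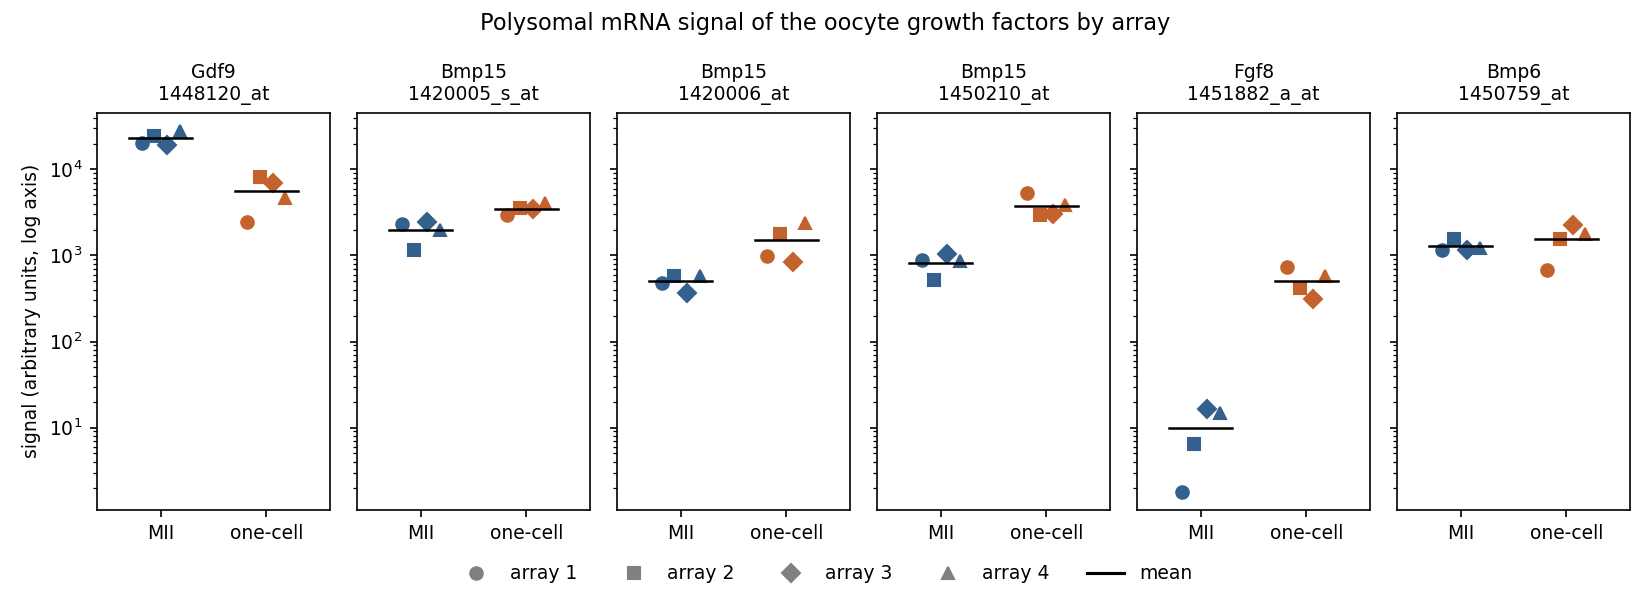
Signal of each of the 6 probe sets on the 4 MII oocyte arrays (blue) and the 4 one-cell embryo arrays (orange), on a log axis in arbitrary units. Marker shapes give the array number and the black lines the group means. The groups are separate for Gdf9, Bmp15 and Fgf8 and overlap for Bmp6, and levels cannot be compared between probe sets.

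Gdf9 was measured by the probe set 1448120_at. Its signal on MII arrays 1 to 4 was 20176, 24807, 19202 and 27964. On one-cell arrays 1 to 4 it was 2453, 8167, 6995 and 4679. Every one-cell array lay below every MII array, and the lowest value came from one-cell array 1. The mean was 23037 ± 4095 (SD, n = 4) in the oocytes and 5574 ± 2535 in the embryos, a 4.49-fold fall on the fitted scale (limma adjusted p = 0.00096). The 95% interval of the log2 change ran from -3.07 to -1.26. Of all probe sets kept, 1.53% fell by as much or more. Without one-cell array 1, the fall was smaller, at -1.82 ± 0.27, and the call held (limma adjusted p = 0.000107). With the hybridization controls as a covariate the change was -1.59 ± 0.39. The log2 values varied more among one-cell arrays (SD 0.77) than among MII arrays (SD 0.25). Gdf9 was still bright in the embryo. Its percentile among the probe sets of an array lay between 99.987 and 99.998 on the MII arrays and between 98.8 and 99.7 on the one-cell arrays.

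Bmp15, the closest relative of Gdf9 among the 4, went in the opposite direction on each of its 3 probe sets. The probe set annotated to its RefSeq mRNA, 1450210_at, read 892, 514, 1033 and 870.3 on MII arrays 1 to 4. On the one-cell arrays it read 5392, 2936, 3034 and 3816. The groups did not overlap, and one-cell array 1 was the highest. The means were 827 ± 221 (SD, n = 4) and 3794 ± 1135, a rise of 2.18 ± 0.32 on the log2 scale or 4.55-fold (limma adjusted p = 7.07e-05). Without one-cell array 1 the rise was 2.00 ± 0.28.

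The other probe sets of Bmp15 are both annotated to the sequence tag AU015375, which RefSeq lists as a synonym of Bmp15. The first, 1420006_at, read 479, 573, 367 and 578 on MII arrays 1 to 4, and 990.4, 1760, 846 and 2402 on one-cell arrays 1 to 4. Again every embryo array was above every oocyte array, here with one-cell arrays 2 and 4 the highest. The rise was 1.46 ± 0.34 (limma adjusted p = 0.00327). The call held without each array in turn (1.62 ± 0.33 without one-cell array 1), and was lost after centring each array on its median (1.15 ± 0.47, adjusted p = 0.0897, against a range of 0.000231 to 0.0897 over the 20 alternatives).

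The second tag-based probe set, 1420005_s_at, carries the array maker's suffix for probes that may match more than 1 transcript. It read 2308, 1150, 2478 and 1996 on the MII arrays and 2926, 3584, 3429 and 4070.2 on the one-cell arrays. The groups were separate here too, with MII array 2 the lowest. The rise was 0.87 ± 0.32 and passed narrowly (limma adjusted p = 0.0486). It kept its direction under all 20 alternatives, from 0.55 to 1.33, but passed in only 8 of them (adjusted p from 0.00168 to 0.428). Leaving out any 1 array other than one-cell array 1 ended the call, with changes of 0.63 to 0.99. The rise was 0.95 ± 0.29 and passed without one-cell array 1. It was the only 1 of the 6 probe sets for which this happened.

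The size of the Bmp15 rise was thus not settled by its probe sets, while the direction was shared. Within each array, 1450210_at was set against 1420005_s_at. The log2 difference was between -1.36 and -1.15 on the MII arrays and between -0.29 and 0.88 on the one-cell arrays. It rose by 1.32, with groups that did not overlap (two-sided exact permutation test, p = 0.0286, the smallest that 4 arrays against 4 allow, and 0.0857 after adjustment over the 3 pairs of Bmp15 probe sets). The other 2 pairs overlapped and gave adjusted p = 0.257 each in the same exact test. As the mean of its 3 probe sets, Bmp15 rose by 1.505 ± 0.25 (limma adjusted p = 0.000357).

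Fgf8 was measured by 1451882_a_at, whose suffix marks probes shared by alternative transcripts of a gene. RefSeq lists 6 curated Fgf8 transcripts, so the signal does not tell isoforms apart. Its signal on MII arrays 1 to 4 was 1.8, 6.5, 16.3 and 14.7, below the array median on all 4. On one-cell arrays 1 to 4 it was 740.0, 418, 314 and 573, above the 75th percentile of each of those arrays, which lay between 109 and 172. No array of either group came near the other group. The means were 9.83 ± 6.86 (SD, n = 4) and 511 ± 186, and the fitted rise was 26.3-fold (limma adjusted p = 2.55e-07).

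The fold of Fgf8 is poorly set, because its oocyte signal lies below the array median, where the offset added before taking logs decides its size. With an offset of 1 the log2 change was 5.81 ± 0.55, and with an offset of 50 it was 3.18 ± 0.26. The call held under all 20 alternatives. Without one-cell array 1, the highest for Fgf8, the change was 4.52 ± 0.35. Within the array, Fgf8 went from a percentile between 5.99 and 35.8 in MII oocytes to one between 85.8 and 94.6 in one-cell embryos.

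Bmp6 was measured by 1450759_at. It read 1145, 1562, 1167 and 1237 on MII arrays 1 to 4, and 677, 1542, 2281 and 1775 on one-cell arrays 1 to 4. The groups overlapped, because one-cell array 1 lay below every MII array while one-cell arrays 3 and 4 lay above every MII array. The change of 0.18 ± 0.35 did not pass (limma adjusted p = 0.759). Its 95% interval, from -0.56 to 0.92, still holds changes of the size seen for the weakest Bmp15 probe set. Without one-cell array 1 the change was 0.54 ± 0.25 (limma adjusted p = 0.118). Quantile normalization without that array brought it to 0.78 ± 0.24 (adjusted p = 0.0235), the single setting of 20 in which Bmp6 passed (adjusted p from 0.0235 to 0.939).

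**Figure D2:**
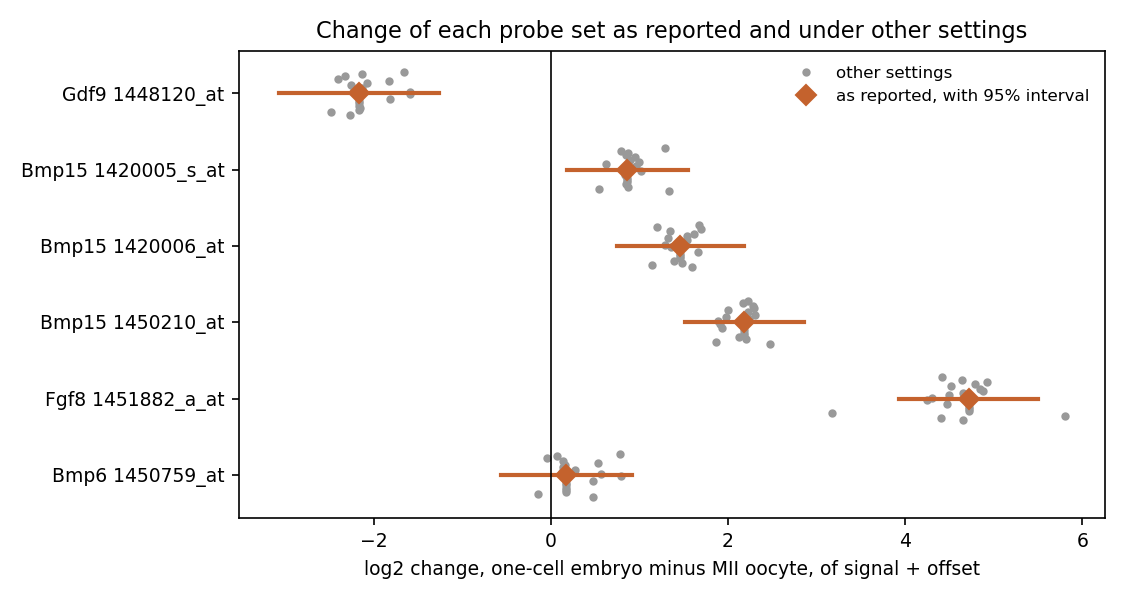
Log2 change of each probe set from MII oocyte to one-cell embryo. Orange diamonds with bars give the values as reported with their 95% intervals, from the offset of 10, and grey points give the 20 other settings. Gdf9 stayed between -2.48 and -1.59 and Fgf8 between 3.18 and 5.81, while Bmp6 lay on both sides of 0.

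Because the arrays were scaled as wholes, the 4 genes were also set against each other within each array, where the scaling cancels except through the offset. Each gene was represented by its brightest probe set, which for Bmp15 is 1420005_s_at, the one with the smallest rise. The difference in log2(signal + 10) between Gdf9 and Bmp15 was between 2.95 and 4.42 on the MII arrays and between -0.25 and 1.19 on the one-cell arrays. It fell by 3.03, so these 2 mRNAs changed unequally (exact permutation test, two-sided, p = 0.0286, and 0.0343 after adjustment over the 6 pairs of genes).

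Gdf9 against Bmp6 gave the tightest contrast. Its log2 difference was 4.16 ± 0.23 (SD, n = 4) on the MII arrays and 1.81 ± 0.43 on the one-cell arrays, a change of -2.34 (exact permutation test, adjusted p = 0.0343). Fgf8 rose relative to each of the others: Gdf9 minus Fgf8 changed by -6.88, Bmp15 minus Fgf8 by -3.85 and Fgf8 minus Bmp6 by 4.54 (exact adjusted p = 0.0343 each). Because Fgf8 met the filter only through the embryo arrays, these 3 tests are not independent of that filter. The sizes of these 3 changes are set by the offset, because Fgf8 lies below the array median on every MII array. With offsets of 50 and 1 they ran from -5.33 to -7.98, from -2.32 to -4.94 and from 3.00 to 5.63, in the same directions and with separate groups. The groups were separate in these 5 pairs. Bmp15 minus Bmp6 overlapped and changed by 0.69 with 1420005_s_at as the probe set of Bmp15 (exact permutation test, p = 0.171). With 1450210_at the same pair changed by 2.01 and passed (adjusted p = 0.0286), so whether these 2 differ in response rests on the probe set. Without one-cell array 1 the changes with an offset of 10 were -2.77 for Gdf9 minus Bmp15, -2.36 for Gdf9 minus Bmp6 and 0.41 for Bmp15 minus Bmp6. For the pairs with Fgf8 they were -6.34 (Gdf9), -3.57 (Bmp15) and 3.98 (Bmp6). With 7 arrays the exact test cannot pass, so these are values only.

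**Figure D3:**
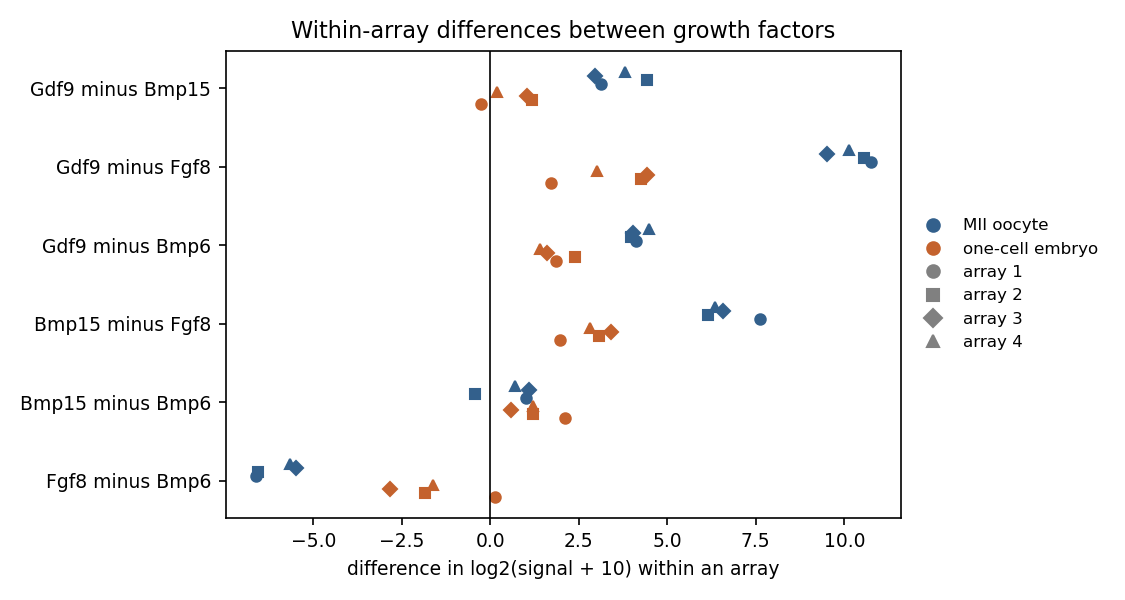
Difference in log2(signal + 10) between pairs of growth factors within each array, with blue for MII oocytes, orange for one-cell embryos and marker shapes for the array number. Of the 6 pairs, 5 have separate groups, and Bmp15 minus Bmp6 overlaps.

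The spread among the one-cell arrays was not the same for the 4 genes. One-cell array 1, with the brightest hybridization controls, had the lowest embryo signal for Gdf9, Bmp6 and the Bmp15 probe set 1420005_s_at. It had the highest for Fgf8 and for 1450210_at. The part of array quality in this spread was not tested. Without one-cell arrays 1 and 4, the pair of embryo arrays with the brightest controls, Gdf9 changed by -1.59 ± 0.28, 1450210_at by 1.88 ± 0.31, 1420006_at by 1.29 ± 0.34 and Fgf8 by 4.30 ± 0.42, and each passed the test.

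The genes whose pattern over the 8 arrays was most like that of each growth factor were found among 11585 genes by Pearson's r of log2(signal + 10). For Gdf9 they were Jag1 (r = 0.995), Abhd17b (0.992) and Shmt1 (0.992). For Fgf8 they were Rufy1, Stc2 and Brf2 (r = 0.994 each). For Bmp15 by 1420005_s_at they were Ndufa2 (0.977), Pdss2 (0.971) and Zfpm2 (0.971), and for Bmp6 Klhdc1 (0.967), Lrrc8e (0.964) and Upf2 (0.963). An r above 0.95 was found with 294 genes for Gdf9 and 567 for Fgf8, but with 4 each for Bmp15 and Bmp6. The points share the arrays, their scaling and the difference between the groups, and r within a group was not computed. Jag1, the Notch ligand that follows Gdf9 most closely, went from a mean signal of 9038 to 2128, a change of -2.25 ± 0.41. Each gene was compared by its brightest kept probe set alone. Jag1 and Abhd17b had 3 kept probe sets each, and Shmt1, Stc2, Pdss2 and Lrrc8e had 2 each. Whether their other probe sets follow the same pattern was not tested.

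The pathway around these factors was described with 8 lists of ligands, receptors, signal transducers, processing enzymes and inhibitors. Of 113 listed genes, 68 were kept, each by its brightest kept probe set. Among the 68, 6 rose and 15 fell, or 21 in all, against 20.1% of all genes called higher, 14.7% called lower and 34.8% called either way. The counts of each list below stand against these same shares. The median change was -0.16 over the 68 and 0.16 over all 12359 genes tested.

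Receptors of the TGF-β family were lower in the embryo. Of 11 kept, 8 fell and none rose in limma, with a median change of -1.93. At an unadjusted p under 0.05, 9 were lower and 0 higher. The type II receptor Bmpr2, shared by GDF9, BMP15 and BMP6, went from 3279.6 ± 928 (SD, n = 4) to 283 ± 94.9, a change of -3.52 ± 0.33 (limma adjusted p = 1.2e-06). The activin type I receptor Acvr1b changed by -2.70 ± 0.34 and the co-receptor Tgfbr3, betaglycan, by -2.62 ± 0.33. The BMP type I receptors Acvr1 (-2.43 ± 0.34), Bmpr1a (-1.97 ± 0.29) and Bmpr1b (-1.93 ± 0.29), the TGF-β type I receptor Tgfbr1 (-1.56 ± 0.28) and the activin type II receptor Acvr2a (-1.17 ± 0.30) fell too. Over the 21 other settings between 7 and 9 receptors were called lower and none higher. With one-cell array 1 left out it was 8 of 11, with a median of -1.80, and Bmpr2 changed by -3.24 ± 0.27, Acvr1b by -2.38 ± 0.27 and Tgfbr3 by -2.38 ± 0.29.

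The falls of the receptors rest largely on their brightest probe sets. At the level of single probe sets, 12 of 26 were called lower and 1 higher, against 12.8% and 19.3% of all probe sets kept. Neither other probe set of Bmpr2 passed (-0.62 and -0.17), nor did those of Tgfbr3 (0.37), Acvr1b (0.85), Bmpr1b (0.57 and -0.43) and Tgfbr1 (-0.91), while 1 of the 2 others of Acvr1 and 2 of the 4 others of Bmpr1a fell. The other probe set of Acvr2a rose by 1.15. With the probe sets of a gene averaged, 7 of 11 receptors were still called lower, with a median of -1.12. Bmpr2 then changed by -1.43 ± 0.21, Bmpr1b no longer passed (-0.60 ± 0.22, limma adjusted p = 0.0533), and Acvr2a was at -0.01 ± 0.26 (adjusted p = 0.977).

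**Figure D4:**
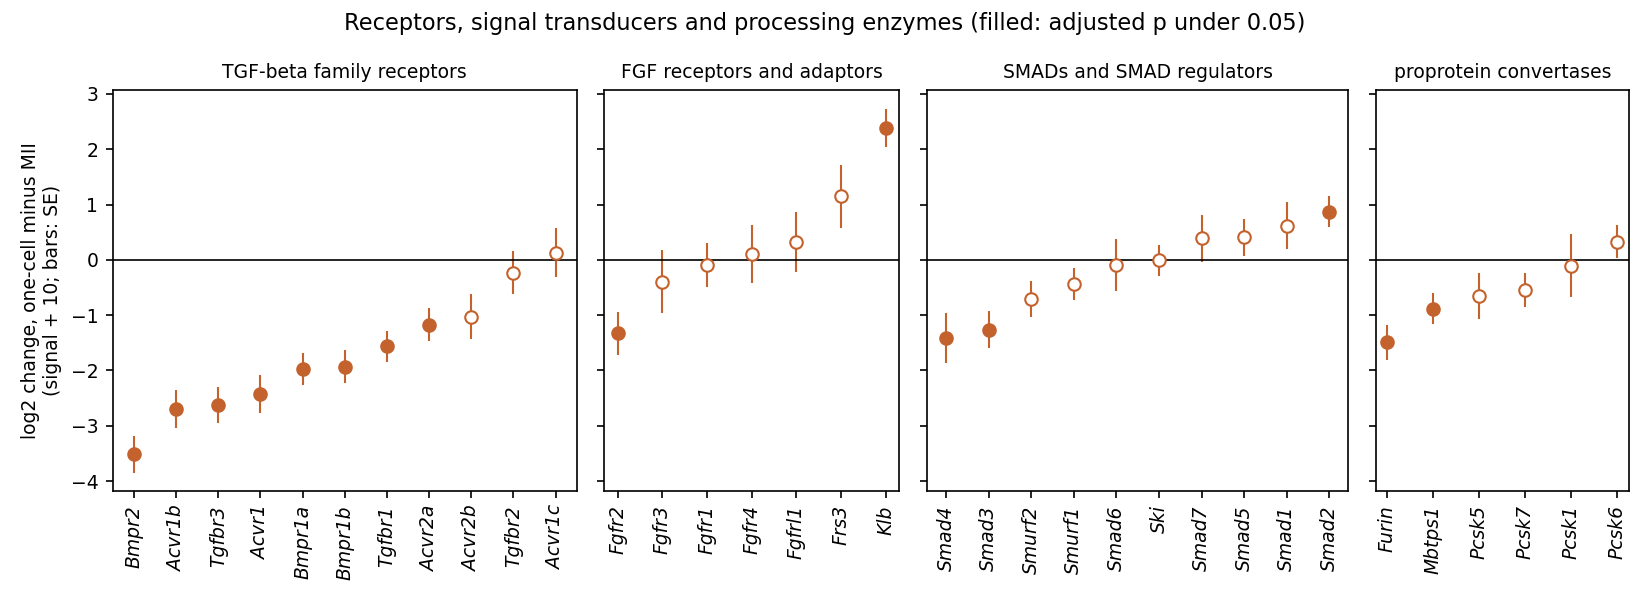
Log2 change from MII oocyte to one-cell embryo of the receptors, SMADs and convertases kept, each by its brightest probe set, on log2(signal + 10) with the limma SE as bars. Filled points have an adjusted p under 0.05. Of 11 TGF-β family receptors 8 are filled and below 0, while the other lists hold few calls or calls on both sides of 0.

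The SMADs, which carry the signal of these receptors to the nucleus, held calls in both directions. Of 10 kept, 2 fell and 1 rose, against 14.7% of all genes called lower and 20.1% called higher. Smad3 changed by -1.26 ± 0.34 (limma adjusted p = 0.00851). It changed by -0.99 ± 0.24 without one-cell array 1, and lost its call once the hybridization controls entered the fit (-0.82, adjusted p = 0.0757). Another of its probe sets rose (1.13), and the mean of its 3 was 0.12 ± 0.20 (adjusted p = 0.699), which leaves its direction unsettled. Smad4, the shared partner of the other SMADs, changed by -1.41 ± 0.45, and its call was lost with any 1 of 5 arrays left out (-1.38 to -1.09, adjusted p from 0.055 to 0.0829: MII array 2, 3 or 4, or one-cell array 2 or 3) and after quantile normalization (-0.93, adjusted p = 0.196). Smad2 rose by 0.87 ± 0.29, and lost its call when MII array 2, 3 or 4, or the third one-cell array, was left out (0.68 to 0.89, adjusted p from 0.0598 to 0.0902). Its call was also lost after median centring (0.56, adjusted p = 0.377), with quantile normalization on all arrays (0.79, adjusted p = 0.0563) or without one-cell array 1 (0.78, adjusted p = 0.0505), and without the variance trend (0.87, adjusted p = 0.0541).

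Furin, a convertase that cuts TGF-β family precursors, fell from 1088 ± 453 (SD, n = 4) to 362 ± 83.9, a change of -1.49 ± 0.32 (limma adjusted p = 0.00201). Of 6 convertases kept, 2 fell and none rose in limma, and the counts were the same at an unadjusted p under 0.05. The other was Mbtps1, a protease of the Golgi (-0.88 ± 0.28, adjusted p = 0.0213), whose call was lost when MII array 3 or 4, or the fourth one-cell array, was left out (-0.87 to -0.81, adjusted p from 0.0548 to 0.0667). It was lost by more without one-cell arrays 1 and 4 (-0.54, adjusted p = 0.143) and once the hybridization controls entered the fit (-0.55, adjusted p = 0.162), and also after median centring (-1.20, adjusted p = 0.0534). Pcsk7 changed by -0.55 ± 0.30 and did not pass, but did in 3 of the other settings (-1.001 to -0.87).

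On the FGF side, 1 of 7 receptors and adaptors rose and 1 fell, against 20.1% of all genes called higher and 14.7% called lower. Klb, a co-receptor for endocrine FGFs, rose by 2.39 ± 0.34 from a low signal (37.4 to 229). Fgfr2 fell by 1.33 ± 0.39 on the log2 scale, but its other probe sets went both ways (1.26 and -1.40, both past the test), and the call was lost without one-cell array 3 (-1.01 ± 0.38, adjusted p = 0.058), after quantile normalization (-1.08, adjusted p = 0.146) and with its probe sets averaged (-0.49, adjusted p = 0.237). Fgfr2 changed by -1.74 ± 0.30 without one-cell array 1. Frs3 (1.14 ± 0.57, and 0.61 without one-cell array 1) did not pass. Among 6 feedback inhibitors of FGF signalling, Il17rd fell from 1594 to 185 (-3.02 ± 0.32) and Spred1 changed by -1.46 ± 0.28, while Spry1 rose by 1.09 ± 0.27, a call that was lost after median centring (0.77, adjusted p = 0.147). The other probe set of Il17rd rose (1.38), and the mean of both fell (-0.82 ± 0.24). Of the 5 other probe sets of Spred1, 1 fell past the test (-1.48), and the rest did not pass (-1.12, -0.20, -0.32 and 0.07). The mean of its 6 changed by -0.75 ± 0.24 (limma adjusted p = 0.023).

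Few other ligands passed the test. Those that did not include bright ones, with mean signals from 3801 to 2488 for Bmp5, 3126 to 3057 for Tgfb2 and 511 to 565 for Fgf9. Of 13 other TGF-β family ligands kept, Tgfb3 rose from 102 ± 38.1 (SD, n = 4) to 528 ± 139.6 (2.30 ± 0.32, limma adjusted p = 4.61e-05) and Bmp7 rose by 1.75 ± 0.41 from a signal below the array median on 3 of 4 MII arrays. Bmp8a (1.28 ± 0.57) did not pass, and none of the remaining 10 did (0 more at an unadjusted p under 0.05 in limma). None of 9 other FGF ligands passed in limma (2 were higher and 1 lower at an unadjusted p under 0.05), where Fgf10 (1.16 ± 0.44), Fgf1 (-0.78 ± 0.32) and Fgf18 (1.13 ± 0.51) came nearest. The other probe set of Fgf1 rose (0.95, limma adjusted p = 0.0348), so its direction is unsettled. Among 6 extracellular antagonists, Dand5, which binds Nodal, rose by 2.25 ± 0.50 from a signal below the median on all 4 MII arrays, and by 1.83 ± 0.44 without one-cell array 1. Dand5 met the filter only through the embryo arrays, so its call is not independent of that filter. Chrd (-1.06 ± 0.46) and Fst (-1.12 ± 0.66), which bind BMPs and activins, did not pass. Several of these gained a call with a single array left out. Without one-cell array 3, Bmp8a (1.68, limma adjusted p = 0.0337) and Fgf18 (1.48, adjusted p = 0.0401) passed. Fgf10 passed without MII array 2 (1.4995) or one-cell array 1 (1.32), Fgf1 without one-cell array 4 (-1.03), Chrd without one-cell array 1 (-1.45) and Fst without MII array 4 (-1.71). Beyond single arrays, Chrd passed in 6 of the other settings (-1.82 to -1.26), Fgf1 in 4 (-1.23 to -0.78) and Fgf10 in 4 (1.16 to 1.35). Chrd met the filter only through the MII arrays, with a mean signal of 64.6 in oocytes and 31.7 in embryos. No embryo array read Chrd above its own median. The calls that Chrd gained are therefore not independent of that filter.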

How the data were processed

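Polysomal mRNA was hybridized to 1-colour arrays after 2 rounds of in vitro transcription, per the labels. The values are intensities on a linear scale, as deposited. The software that made them is not given in the sources used here. Each of the 8 arrays had a mean of 150.0 once the lowest and highest 2% of probe sets were left out, so the authors had scaled the intensities, and changes in total polysomal mRNA are lost. Probe sets were named by GEO's platform annotation and RefSeq (GRCm38.p6), without coordinates or detection calls.

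Of 45101 probe sets, 64 controls were left out of the tests. An offset of 10 was added before log2, and limma 3.58.1 in R 4.3.3 (variance trend, two-sided) was fitted over the 23336 probe sets kept. That step was tested on simulated data, with independent values and the same spread in both groups. Unequal spread and an array that stands apart were not simulated. A gene was represented by the kept probe set with the highest mean log2 signal. Pairs of genes were compared by exact permutation tests, two-sided (SciPy 1.17.1). The comparison between Bmp15 probe sets was added with their values known. Precision is limited by having 4 arrays per group.

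The 4 genes, the lists and the tests were chosen with earlier results of these data known. From each pathway list the 3 genes with the smallest p were named, with all receptors, SMADs and convertases past the test, and for each growth factor the 3 most similar genes with an ordinary gene name. Alternatives covered normalization, offset, filter, variance model, array weights, hybridization controls, the replicate number as a block, left-out arrays, averaged probe sets and a threshold of 0.01. Same-numbered arrays of the groups correlated weakly in their deviations (r of -0.16, -0.11, 0.14 and 0.04), so the numbers were not treated as pairs. For 2 of the 4 MII arrays, the one-cell array with the highest r had the same number.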

Additional observations from a re-analysis of the deposited data

Results flagged for a closer look

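In 4 of 70 groups of 4 arrays, 1 array lay far from the other 3 (Dixon's criterion, which flags about 5% of groups by chance). None of them belongs to Gdf9, Bmp15, Fgf8 or Bmp6. On MII array 1 Bmp8a had a signal of 1.2, while MII arrays 2 to 4 gave 37.5 to 41.8. Without that array its change was 0.75 ± 0.50 and still did not pass (limma adjusted p = 0.324). Acvr1 read 80.7 on one-cell array 1 and 33.9 to 39.3 on one-cell arrays 2 to 4, and Acvr2a read 137 there against 71.8 to 76.2. Without that array both falls were larger (-2.67 ± 0.29 and -1.37 ± 0.25). Tgfbr1 read 80.6 on one-cell array 4 against 129.6 to 134, and changed by -1.40 ± 0.30 without it.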

How the results depend on the processing

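Gdf9, Fgf8 and the Bmp15 probe set 1450210_at kept direction and call under all 20 alternatives. The Bmp15 probe set 1420005_s_at lost its call after median centring (0.55), without the filter (0.87), without the variance trend (0.87), with the replicate number as a block (0.87, limma adjusted p = 0.0595), without one-cell arrays 1 and 4 (0.88) and with single arrays left out (0.63 to 0.99). After median centring 1420006_at also lost its call (1.15), leaving 3 of the 6 probe sets called instead of 5. The block changed no other call among the 6. Bmp6 gained a call only after quantile normalization without one-cell array 1 (0.78), a setting chosen after seeing the data. Bmp15 minus Bmp6 passed with 1450210_at in place of 1420005_s_at (2.01). Without one-cell arrays 1 and 4, Gdf9 minus Fgf8 changed by -5.89 instead of -6.88, but the offset alone moves it from -5.33 to -7.98, so neither size is settled. With 7 arrays or within replicate numbers the exact test cannot pass (smallest p = 0.0571 and 0.125), so those pairs are values only. With probe sets averaged, 11 instead of 6 pathway genes were higher and Smad3 turned to 0.12. Of 601 values of named pathway genes under alternatives, 549 kept direction and call, 27 lost a call and 24 gained one. The causes were not tested.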
